A study of Mus musculus with 4 samples.

Results

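Integrins and laminins are the adhesion receptors and the matrix proteins that anchor cells to basement membranes, and their subunit genes were followed here in the cerebral cortex of mouse embryos with and without Cd93. The genes were taken by name and by the protein-coding label from the authors' deposited tables: 17 integrin alpha, 7 integrin beta and 11 laminin chain genes, 35 of the 20385 genes that both tables list. Libraries came from dissected cortex of C57BL/6 embryos at embryonic day 16, with 2 libraries from wild type animals (WT 1 and WT 4) and 2 from animals with a Cd93 knockout (KO 5 and KO 6). The labels name no agent, no driver line and no second allele, and they do not say which part of Cd93 was removed, whether embryos were pooled or whether each library had its own embryo. The p-values therefore measure the spread between these libraries, which may be technical. The title of the study concerns CD93, its matrix ligand MMRN2 and astrocyte formation, and integrin adhesion is not named there.

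An integrin is a pair of 1 alpha and 1 beta subunit that spans the membrane, binds matrix or counter-receptors outside and connects to actin through talin and kindlin inside. A laminin is a cross-shaped trimer of an alpha, a beta and a gamma chain that builds the sheet of basement membranes, where integrins and dystroglycan hold it. In the fetal cortex, the endfeet of radial glia rest on the pial basement membrane, to which meningeal fibroblasts contribute, and vessels carry their own. Loss of laminin or of beta-1 integrin function at the pial surface is known to disturb the attachment of radial glia and the layering of neurons.

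The libraries held 16318317 to 17586157 counts. Cd93 itself (ENSMUSG00000027435, chromosome 2) had 680, 409, 111 and 99 counts in WT 1, WT 4, KO 5 and KO 6, so both KO libraries lay below both wild type libraries, as the labels have it (log2 difference -2.32, SE 0.25, edgeR adjusted p 0.211). Cortical identity was present in all libraries. The 8 projection neuron markers summed to 6688 to 7811 CPM, the count scaled to library size with edgeR's TMM factors, and the 10 radial glia markers to 1928 to 2190 CPM. WT 1 stood apart. The 14 markers of meninges and fibroblasts summed to 552 CPM in WT 1 against 87.5, 46.4 and 68.8 in WT 4, KO 5 and KO 6, and all 14 had counts in each library. The 12 endothelial markers summed to 290 CPM in WT 1 and 165 to 177 in the other libraries, the 8 pericyte and smooth muscle markers to 257 and 166 to 193, and the 13 microglia and macrophage markers to 127 and 68.0 to 71.6. The 10 ganglionic eminence markers summed to 788 CPM in WT 1 against 369, 234 and 374 in WT 4, KO 5 and KO 6. The 5 blood cell markers found in both tables summed to 9.92 to 20.9 CPM, and the 4 choroid plexus markers to 14.6, 3.41, 5.14 and 17.1 CPM in WT 1, WT 4, KO 5 and KO 6. Of the tested genes on these marker lists 0 were called between the genotypes.

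No integrin or laminin gene was called between the genotypes in the test with all 4 libraries. The same test did not call Cd93 itself (log2 difference -2.32, edgeR adjusted p 0.211), so a missing call is no evidence of equal levels. Of the 35 genes 31 passed the filter on low counts, and the quasi-likelihood test of edgeR, with p adjusted over 16371 genes by Benjamini-Hochberg, called 0 of them at an adjusted p of 0.05, each with an adjusted p of 0.9999. Over all tested genes 0.0122% were called. At an unadjusted p under 0.05 stood 3 of the 31, Itgb3 and Lamc3 among them, against 1.94% of all tested genes; DESeq2 and limma-voom also called 0. The log2 fold change, KO over WT, was below 0 in 24 of the 31 (77.4%), against 51% of all genes, and its median was -0.28 against -0.003. That median depended on which WT library was used. It was -0.57 for KO 6 over WT 1 and 0.11 for KO 5 over WT 4, the pairs that share a deposited table, and 0.04 in the edgeR fit without WT 1. In bulk tissue, fewer cells of a type and less RNA per cell cannot be told apart.

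**Figure D1:**
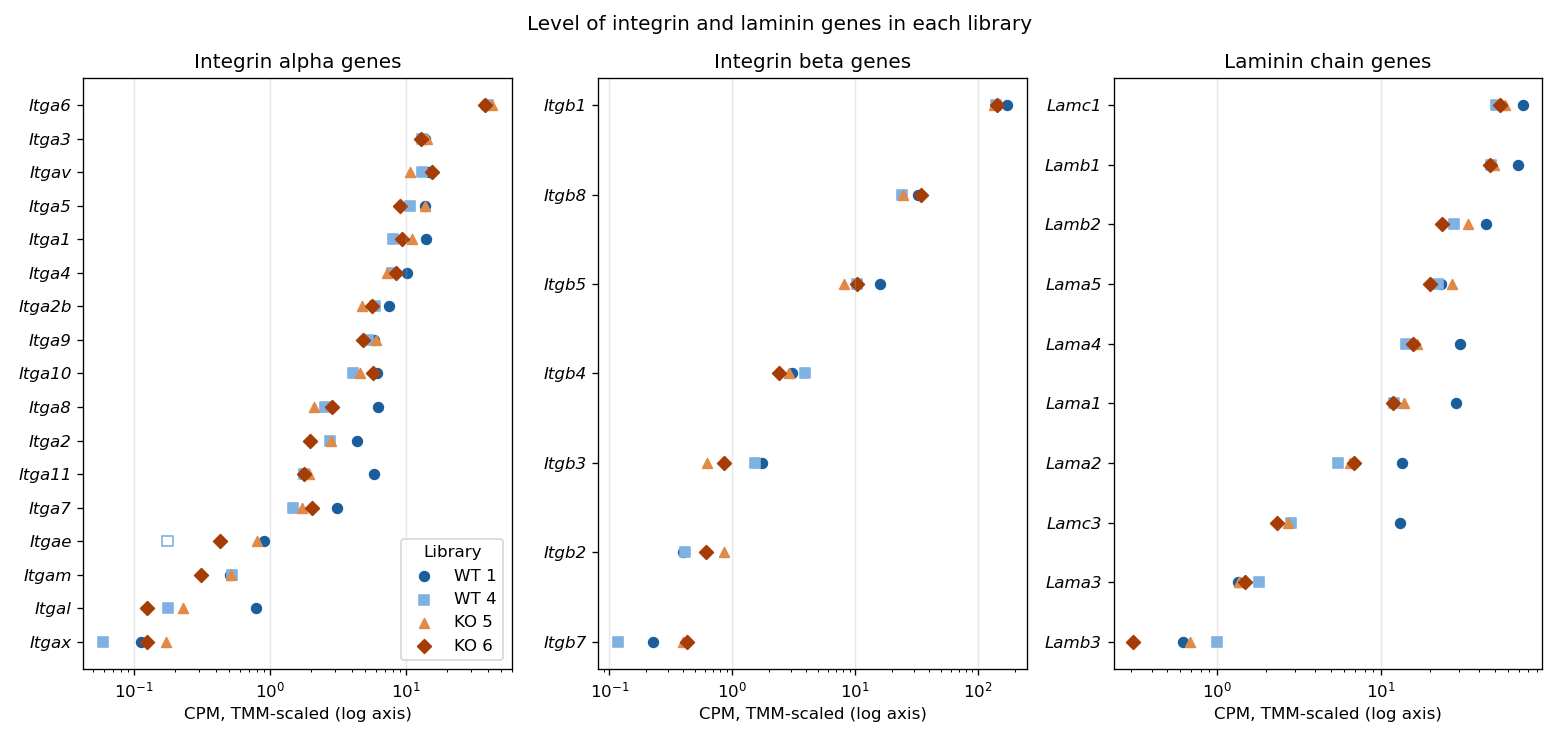
Level of the integrin and laminin genes reported here in each of the 4 libraries, in TMM-scaled CPM on log axes, with 1 panel for each of the integrin alpha, integrin beta and laminin genes. The open square marks Itgae in WT 4, which had 0 counts and is drawn at the value of 3 counts (0.176 CPM); WT 1 lies to the right of the other libraries in 7 laminin rows, and Itgb1, between 136 and 173 CPM, lies above all the others shown.

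Among the beta subunits, the transcripts were dominated by Itgb1, which encodes the beta-1 subunit that pairs with the widest range of alpha subunits. Itgb1 (ENSMUSG00000025809, chromosome 8, 128685654 to 128733200, plus strand) had 3080, 2376, 2378 and 2333 counts in WT 1, WT 4, KO 5 and KO 6. WT 1 was high, the other 3 lay close together and the genotypes overlapped. Per kilobase of annotated exon its level was 36.3 ± 4.19 CPM (SD over the 4 libraries), and the next were Itgb5, a partner of the alpha-v subunit on vitronectin, at 3.15 ± 0.928 and Itgb8, whose dimer with alpha-v releases active TGF-beta and acts in brain vessel development, at 2.61 ± 0.486. Itgb1 was above Itgb5 without overlap in any library, whereas the ranges of Itgb5 and Itgb8 overlapped, with Itgb5 above in 3 of 4 libraries. Below them came Itgb4, the hemidesmosome subunit, at 0.438 ± 0.0909, then Itgb3 at 0.202 ± 0.0899 and Itgb2, the common beta subunit of leukocyte integrins, at 0.187 ± 0.0709, which did not differ beyond their spread. Itgb7, a lymphocyte subunit, was last at 0.106 ± 0.0535 CPM per kilobase.

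Itga6, which encodes a laminin-binding alpha subunit found on radial glia and on vessels, had the highest level among the alpha subunits. It had 680, 681, 757 and 615 counts in WT 1, WT 4, KO 5 and KO 6 (ENSMUSG00000027111, chromosome 2, 71745616 to 71858416, plus strand), so the genotypes overlapped and WT 1 was not high. Per kilobase of exon it stood at 4.42 ± 0.269 CPM, apart from Itga5, the fibronectin receptor subunit, at 2.39 ± 0.485 and Itga3, the other main laminin receptor subunit of cortical cells, at 2.38 ± 0.107. Itga5 and Itga3 overlapped, each being the higher in 2 libraries. Itga5 (ENSMUSG00000000555, chromosome 15, 103344286 to 103366763, minus strand) had 245, 181, 242 and 146 counts in WT 1, WT 4, KO 5 and KO 6, a spread within each genotype that exceeded the gap between them. Itgav, the alpha-v subunit that binds RGD sequences, followed at 1.26 ± 0.198, and Itga2b, the platelet alpha subunit, at 1.09 ± 0.214 and Itga10, a collagen receptor subunit of cartilage, at 0.985 ± 0.184 overlapped it or each other. The remaining subunits detected above 0.2 CPM per kilobase were Itga9, Itga4, Itga1, Itga11, Itga8, Itga2 and Itga7, from 0.711 down to 0.257, and each of these overlapped its neighbour in the order. The leukocyte subunits Itgae, Itgam, Itgal and Itgax lay between 0.116 and 0.0242.

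Summed by ligand, the 3 laminin-binding alpha subunits reached 6.72 to 7.50 CPM per kilobase over the 4 libraries. The 4 RGD-binding ones reached 4.71 to 6.39, the 4 collagen-binding ones 1.94 to 3.69, Itga4 and Itga9 together 1.23 to 1.48 and the 4 leukocyte ones 0.144 to 0.441. WT 1 gave the highest sum for the RGD-binding, collagen-binding, Itga4 with Itga9 and leukocyte groups, and KO 5 for the laminin-binding group. Itgb1 exceeded the sum of the 12 alpha subunits with which its protein can pair in each library, at 2.46 and 2.47 times the sum in WT 1 and WT 4 and 2.198 and 2.54 times in KO 5 and KO 6. With the length of the longest coding transcript in place of all annotated exons, an alternative chosen after seeing the data, these ratios were 1.57 to 1.82. Itgav reached 0.177 to 0.236 times the sum of Itgb3, Itgb5 and Itgb8, which are among its partners besides beta-1. With the longest coding transcript as length it reached 0.231 to 0.300 times that sum.

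Among laminin chains, Lamc1, Lamb1 and Lamb2 led. These encode the gamma-1 chain present in most laminins and the beta-1 and beta-2 chains. Lamc1 (ENSMUSG00000026478, chromosome 1, 153218922 to 153332786, minus strand) had 1308, 863, 1014 and 870 counts in WT 1, WT 4, KO 5 and KO 6. Lamb1 (ENSMUSG00000002900, chromosome 12, 31265234 to 31329644, plus strand) had 1235, 799, 864 and 757 counts in the same order. In both genes WT 1 was the highest library and WT 4 lay among or next to the KO libraries. Per kilobase of exon Lamc1 stood at 7.13 ± 1.23 CPM, Lamb1 at 5.35 ± 1.11 and Lamb2 at 5.35 ± 1.45, the last 2 overlapping. The alpha chains were lower, with Lama5, the chain of vascular and epithelial membranes, at 2.05 ± 0.257, Lama1, the chain of the embryonic and pial membrane, at 1.72 ± 0.836, Lama4, the endothelial chain, at 1.602 ± 0.634 and Lama2, the chain of muscle and of brain vessels, at 0.497 ± 0.225. Lama5, Lama1 and Lama4 overlapped. With the longest coding transcript as length, Lama4 came first among the alpha chains and Lamb1 above Lamc1. Lamc3, a gamma chain of vessels and meninges, stood at 0.862 ± 0.861, and the epithelial chains Lama3 and Lamb3 at 0.140 and 0.0987.

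**Figure D2:**
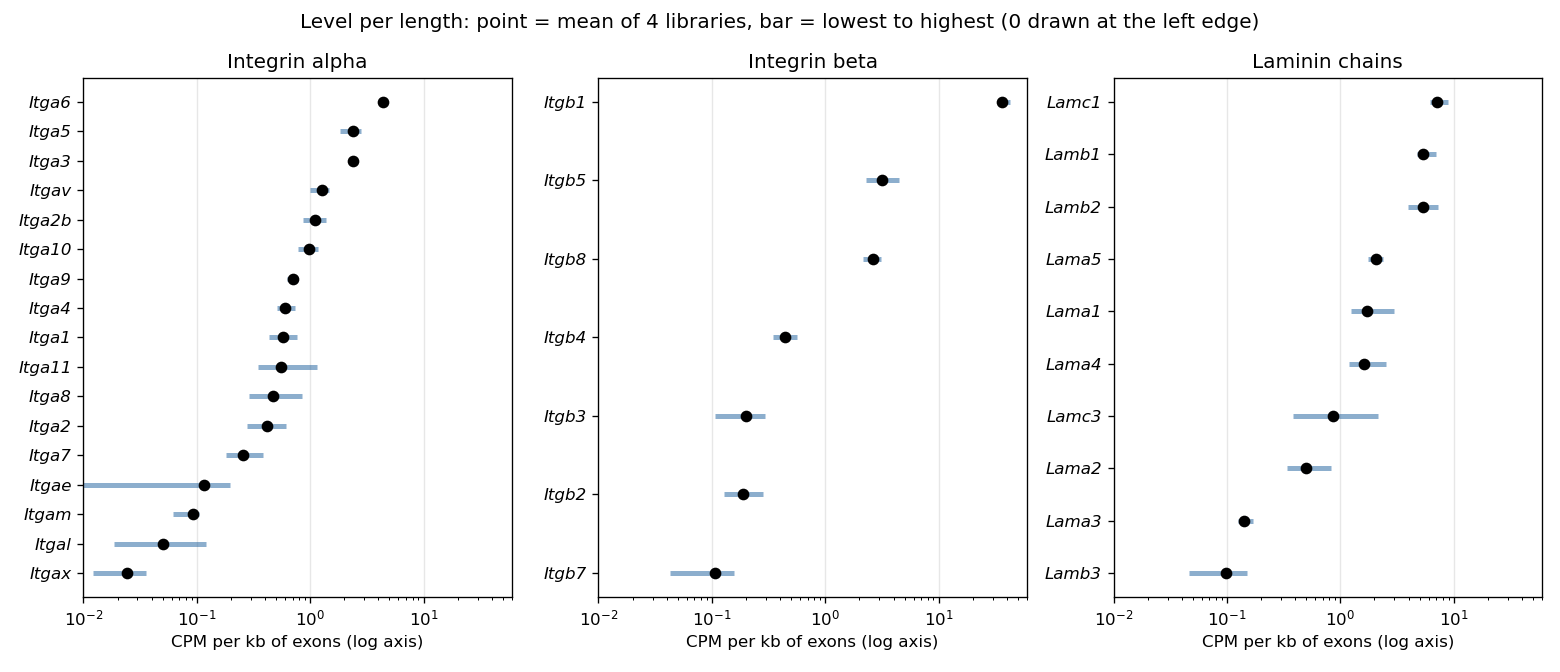
Level per kilobase of annotated exon of the integrin and laminin genes reported here, in CPM per kilobase on a log axis, as the mean of 4 libraries (point) with the lowest and highest library (bar). Itgb1 at 36.3 lies far above its neighbours, Itga6 at 4.42 leads the alpha subunits and Lamc1 at 7.13 the laminins; the bars of Lamc3 and Itga11 are wide, and that of Itgae, at 0 in WT 4, runs to the left edge.

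Promoter sequences are shown for 4 genes. WT 1 was the highest library for each of the 4, so they do not contrast genes high in WT 1 with other genes. RefSeq's table on GRCm38.p6 holds an entry for 22 of the 35 genes, 20 of them with a single start site, and the choice from these 20 was the 2 with the highest level (Itgb1 and Lamb1) and those among the genes called without WT 4, given further on (Itga11 and Lama2). Each line is the 250 bases before the RefSeq start on the gene's strand, with capitals marking GGGCGG, the GC box, on either strand. The RefSeq starts of Lamb1, Itga11 and Lama2 lie inside the span that the deposited tables give each gene. The windows of Lamb1 and Itga11 reach into that span. The Lama2 window, on the minus strand, lies wholly inside it, downstream of the deposited start at 27619758. The Itgb1 window ends at the base before the deposited start.
Itgb1, chr8:128685404-128685653, plus strand: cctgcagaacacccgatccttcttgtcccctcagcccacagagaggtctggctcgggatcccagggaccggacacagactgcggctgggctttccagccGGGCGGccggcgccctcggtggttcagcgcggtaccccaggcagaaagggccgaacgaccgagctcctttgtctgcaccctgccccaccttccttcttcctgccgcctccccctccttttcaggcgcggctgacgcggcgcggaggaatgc
Lamb1, chr12:31265043-31265292, plus strand: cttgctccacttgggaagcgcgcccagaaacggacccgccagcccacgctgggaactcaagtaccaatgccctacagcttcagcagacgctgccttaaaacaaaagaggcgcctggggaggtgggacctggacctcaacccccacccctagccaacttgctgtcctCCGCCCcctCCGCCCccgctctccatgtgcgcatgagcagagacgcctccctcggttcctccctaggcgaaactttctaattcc
Itga11, chr9:62677605-62677854, plus strand: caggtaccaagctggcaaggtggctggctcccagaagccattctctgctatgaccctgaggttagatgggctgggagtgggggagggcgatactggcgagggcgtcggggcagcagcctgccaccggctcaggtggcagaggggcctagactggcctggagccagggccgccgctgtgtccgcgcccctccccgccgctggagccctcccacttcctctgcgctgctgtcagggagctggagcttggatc
Lama2, chr10:27616943-27617192, minus strand: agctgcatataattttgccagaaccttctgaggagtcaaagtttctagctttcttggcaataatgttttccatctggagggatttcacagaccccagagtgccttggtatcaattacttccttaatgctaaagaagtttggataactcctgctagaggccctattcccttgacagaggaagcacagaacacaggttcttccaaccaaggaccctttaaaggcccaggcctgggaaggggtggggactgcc

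The windows of Itgb1, Lamb1 and Itga11 had 68%, 62% and 68.4% G or C and 21, 14 and 12 CG pairs. That of Lama2, which lies wholly inside the deposited span of the gene, had 47.2% and 0. The median over 32851 such windows was 6 CG pairs. GGGCGG occurred 1 time for Itgb1 and 2 times for Lamb1, and not for Itga11 and Lama2, where 32.7% of all windows hold it. CCAAT occurred in the Lamb1 window alone among the 4 (33.8% of all windows), TATAAA in none of the 4 (12.4%), and CANNTG, the E-box, 2 times for Lamb1 and 1 time each for Itga11 and Lama2 (66.2%). Both strands were searched, and each motif was counted on its own. A match describes letters and is no evidence of binding.

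The laminin genes held the lowest median difference of the 3 groups, -0.48, with 10 of 11 below 0, and 7 of the 11 (63.6%) had their highest level in WT 1. Over all tested genes WT 1 was the highest library in 27.9%. Lamc3 (ENSMUSG00000026840, chromosome 2, 31887291 to 31946539, plus strand) had 233, 48, 48 and 38 counts in WT 1, WT 4, KO 5 and KO 6. The 3 other libraries lay together and WT 1 was 4.98 times their mean. The level was 7.96 ± 7.28 CPM for WT against 2.54 ± 0.281 CPM for KO (SD, n = 2 each), a difference on the log2 scale of -1.65 (SE 0.67, edgeR adjusted p 0.9999) that was -2.43 for KO 6 over WT 1 and -0.04 for KO 5 over WT 4. Lama1 (ENSMUSG00000032796, chromosome 17, 67697265 to 67822645, plus strand) had 511, 206, 244 and 194 counts in WT 1, WT 4, KO 5 and KO 6, and Lama4 (ENSMUSG00000019846, chromosome 10, 38965515 to 39110188, plus strand) had 546, 243, 291 and 255. For both, WT 4 lay with the KO libraries and WT 1 was 2.27 and 1.98 times the mean of the other 3. Their log2 fold changes were -0.66 (SE 0.38) and -0.48 (SE 0.33), and within KO 5 over WT 4 they were 0.20 and 0.22.

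WT 1 was also the highest library for Lama2, with 241 counts in WT 1 and 94 to 114 in the others, and for Lamb1 with a difference on the log2 scale of -0.28 (SE 0.19), Lamb2 with -0.31 (SE 0.26) and Lamc1 with -0.16 (SE 0.18). Lama5 did not have this pattern: its counts were 417, 381, 476 and 327 in WT 1, WT 4, KO 5 and KO 6, highest in a KO library, with a difference on the log2 scale of 0.05 (SE 0.17). WT 1 also carried the high sums of meningeal, vascular, microglia and macrophage, and ganglionic eminence markers given above. The part of such tissue in these differences was not tested. Of 17 other genes of the basement membrane on the list 16 were tested, 13 of them below 0 and 3 above, and 0 were called. WT 1 was highest in 14 of the 16. The median of the 16 was -0.45, or -0.77 for KO 6 over WT 1 and 0.11 for KO 5 over WT 4. The sign differed between these pairs in 12 of the 16, against 54.9% of all tested genes. Col4a1, the main network-forming collagen of these membranes, had 4182 counts in WT 1 and 1630 to 1769 in the other libraries (log2 fold change -0.73, SE 0.36). Its partner chain Col4a2 had a difference on the log2 scale of -0.603 (SE 0.32), and Nid2, a linker of laminin to collagen, -1.07 (SE 0.54).

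Without WT 4, leaving WT 1 as the lone wild type library and assuming that it varies like the others, edgeR called 5 of 32 tested subunit genes (15.6%), all lower in the KO, where 1.52% of all genes were called lower. These were Lamc3 at -2.36 (adjusted p 5.36e-06), Lama1 at -1.14 (0.0024), Itga11 at -1.64 (0.0137), Lama4 at -0.92 (0.0148) and Lama2 at -1.01 (0.0473). Without WT 1 edgeR called 0 of the subunit genes, where 0.259% of all genes were called. The log2 fold changes of the same 5 were then -0.15 for Lamc3, 0.10 for Lama1, 0.08 for Itga11, 0.18 for Lama4 and 0.28 for Lama2. The 5 calls therefore rest on WT 1. In the direct comparison of the wild type libraries, 8 of 31 subunit genes (25.8%) were at least 2-fold higher in WT 1 than in WT 4, against 4.66% of all genes, and 0 at least 2-fold higher in WT 4, against 1.44%. The 8 were those 5 with Itga7, Itga8 and Itgae. In 25 of the 31 genes (80.6%) the gap between the wild type libraries was larger than the genotype difference, against 69.3% of all tested genes.

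**Figure D3:**
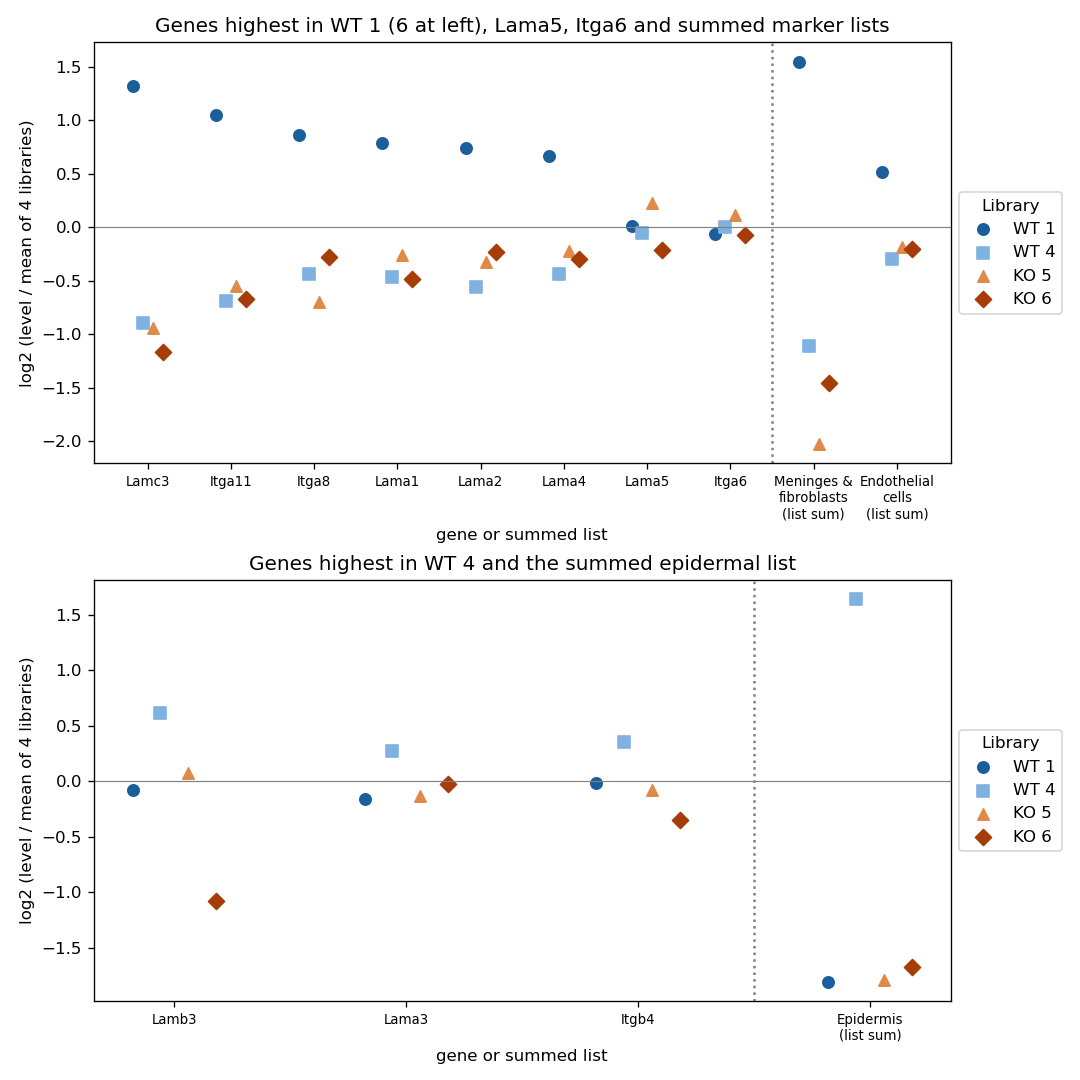
Log2 of the level in each library over the mean of the 4 libraries, for single genes and for summed marker lists to the right of the dotted line. In the upper panel the 6 genes at left and the sums of meningeal and endothelial markers are highest in WT 1 while Lama5 and Itga6 are not. The sums of microglia and ganglionic eminence markers, also highest in WT 1, are not drawn. In the lower panel Lamb3, Lama3, Itgb4 and the sum of epidermal markers are highest in WT 4.

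Lamb3 and Lama3, chains of the laminin of epidermal hemidesmosomes, and Itgb4, the beta subunit of the receptor in that junction, had their highest level in WT 4 instead. Lamb3 had 11, 17, 12 and 5 counts and Lama3 24, 31, 24 and 24 in WT 1, WT 4, KO 5 and KO 6, with log2 fold changes of -0.68 (SE 0.58) and -0.15 (SE 0.37). Itgb4 had 54, 67, 51 and 39 counts, a difference on the log2 scale of -0.39 (SE 0.31). Beside these stood an epidermal list chosen after the values were seen, of which 7 genes were in both tables. It summed to 217.7 CPM in WT 4 against 20.0, 20.3 and 21.9 in WT 1, KO 5 and KO 6, with Krt1, a keratin of the upper epidermis, at 1990 counts in WT 4 and 121 to 134 elsewhere. The lead of WT 4 in the subunit genes was small by comparison and rested on few counts. The log2 ratio of WT 1 to WT 4 was -0.60 for Lamb3, -0.40 for Lama3 and -0.36 for Itgb4. Its median over the 4 tested genes of the epidermal list was -2.93. The part of such RNA in the values of Lamb3, Lama3 and Itgb4 was not tested.

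The alpha subunits had a median log2 fold change of -0.11, with 10 of 14 tested genes below 0. The KO 6 over WT 1 and KO 5 over WT 4 ratios differed in sign in 11 of the 14 (78.6%), against 54.9% of all tested genes. Itga11, a fibroblast receptor of fibrillar collagen (ENSMUSG00000032243, chromosome 9, 62677826 to 62783982, plus strand), had 104, 30, 34 and 29 counts in WT 1, WT 4, KO 5 and KO 6. WT 1 alone was high, and the log2 fold change was -1.03 (SE 0.56). Itga8, a receptor of nephronectin in mesenchymal cells (ENSMUSG00000026768, chromosome 2, 12106632 to 12301922, minus strand), had 111, 43, 37 and 46 counts in the same order, with -0.83 (SE 0.47). Itga2, a collagen receptor subunit (ENSMUSG00000015533, chromosome 13, 114833081 to 114932100, minus strand), had 78, 47, 49 and 32 counts, with -0.58 (SE 0.37). In each of the 3 genes WT 1 was highest and WT 4 lay within the KO range or next to it.

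Of the other alpha subunits, the collagen receptor subunits Itga1 and Itga10 gave log2 differences of -0.12 (SE 0.30) and 0.02 (SE 0.31), Itga7, the laminin receptor subunit of muscle, -0.29 (SE 0.44), and Itga4, a receptor subunit for VCAM-1 and fibronectin, -0.21 (SE 0.23). Itga3, Itga5, Itga6, Itga9 and Itgav lay between -0.10 and 0.05. For Itga6 the standard error was 0.12 and for Itga3 0.17, the smallest among the alpha subunits. Counts of Itgae, the alpha subunit of tissue-resident lymphocytes, in WT 1, WT 4, KO 5 and KO 6 were 16, 0, 14 and 7, where 3 counts in WT 4 would be 0.176 CPM. The gene thus varied more within the wild type than between genotypes.

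Itga2b and Itgb3, whose proteins form the fibrinogen receptor of platelets, both had lower levels in the 2 KO libraries than in either wild type library. Itgb3 (ENSMUSG00000020689, chromosome 11, 104608000 to 104670476, plus strand) had 31, 26, 11 and 14 counts in WT 1, WT 4, KO 5 and KO 6, or 1.64 ± 0.153 CPM for WT against 0.745 ± 0.166 CPM for KO (SD, n = 2 each). Its log2 fold change was -1.13 (SE 0.40), with the smallest p of the subunit genes (0.0276, adjusted 0.9999, edgeR), and it was -0.93 for KO 6 over WT 1 and -1.14 for KO 5 over WT 4. Unlike Lamc3, it kept this size without WT 1, at -1.03, and without WT 4, at -1.22, neither of which passed. Itga2b (ENSMUSG00000034664, chromosome 11, 102453297 to 102470122, minus strand) had 134, 101, 83 and 92 counts in WT 1, WT 4, KO 5 and KO 6, and a difference on the log2 scale of -0.37 (SE 0.26) with -0.40 and -0.32 in the 2 tables. Of the platelet genes on the blood cell list that both tables hold, Pf4 had 128, 4, 2 and 6 counts in WT 1, WT 4, KO 5 and KO 6, Ppbp 8, 2, 1 and 1, Gp9 6, 4, 2 and 2, and Gp1bb 214, 237, 257 and 151. Ppbp and Gp9, at few counts, lay above both KO libraries in both wild type libraries, as Itgb3 and Itga2b did, while Pf4 was high in WT 1 and Gp1bb was highest in KO 5. The part of platelet RNA in the Itgb3 and Itga2b differences was not tested.

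The beta subunits had a median of -0.28, and each of the 6 tested kept its sign in both tables. Below 0 in both were 4 (66.7%), against 22.9% of all tested genes, and above 0 were 2 (33.3%), against 22.3%. Some of these ratios lay close to 0. Itgb8 was at 0.07 for KO 6 over WT 1 and 0.04 for KO 5 over WT 4, and Itgb1 at -0.04 for KO 5 over WT 4. Itgb5 (ENSMUSG00000022817, chromosome 16, 33829665 to 33949153, plus strand) had 282, 177, 142 and 169 counts in WT 1, WT 4, KO 5 and KO 6. Its KO 6 and WT 4 levels were equal to within 0.003 on the log2 scale, so the genotypes touched, and the log2 fold change was -0.505 (SE 0.27), or -0.17 without WT 1. For Itgb1 the levels were 156 ± 23.8 CPM for WT against 140 ± 5.69 CPM for KO, a difference on the log2 scale of -0.16 (SE 0.13) that was 0.003 without WT 1. Itgb8 had 581, 407, 431 and 556 counts in WT 1, WT 4, KO 5 and KO 6, high in 1 library of each genotype, with 0.06 (SE 0.22).

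Leukocyte integrin genes were close to the limit of detection. Itgb2 (ENSMUSG00000000290, chromosome 10, 77530252 to 77565708, plus strand) had 7 counts in each wild type library, 15 in KO 5 and 10 in KO 6, with a difference on the log2 scale of 0.86 (SE 0.51, edgeR p 0.132, adjusted 0.9999). It was the sole tested subunit gene with both KO libraries above both wild type libraries. The 4 genes below the filter were Itgal with 14, 3, 4 and 2 counts in WT 1, WT 4, KO 5 and KO 6, Itgam with 9, 9, 9 and 5, Itgax with 2, 1, 3 and 2, and Itgb7 with 4, 2, 7 and 7. All 13 microglia and macrophage markers had fold changes below 0 (median -0.45), the sign opposite to that of Itgb2, and 0 of them were called. Of these markers 11 were highest in WT 1. Their median was -0.76 for KO 6 over WT 1 and -0.10 for KO 5 over WT 4, with 5 differing in sign between these pairs. The part of such cells in the Itgb2 values was not tested.

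The genotypes did not overlap in 6 of the 31 tested genes. Below the wild type in both KO libraries were 5 of 31 (16.1%), Itga2b, Itgb3, Itgb4 and Lamc3 among them, against 11.9% of all genes, and above it was Itgb2, 1 of 31 (3.23%) against 11.5%. Both shares lie near or under the background. For Lamc3 the gap was slight, as WT 4 and KO 5 had 48 counts each, or 2.82 and 2.74 CPM after scaling. The ratio was below 0 in both tables for 10 genes (32.3%), against 22.9% of all genes, and above 0 in both for 2 (6.45%), against 22.3%. It was of opposite sign for 19 (61.3%), against 54.9% of all genes.

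**Figure D4:**
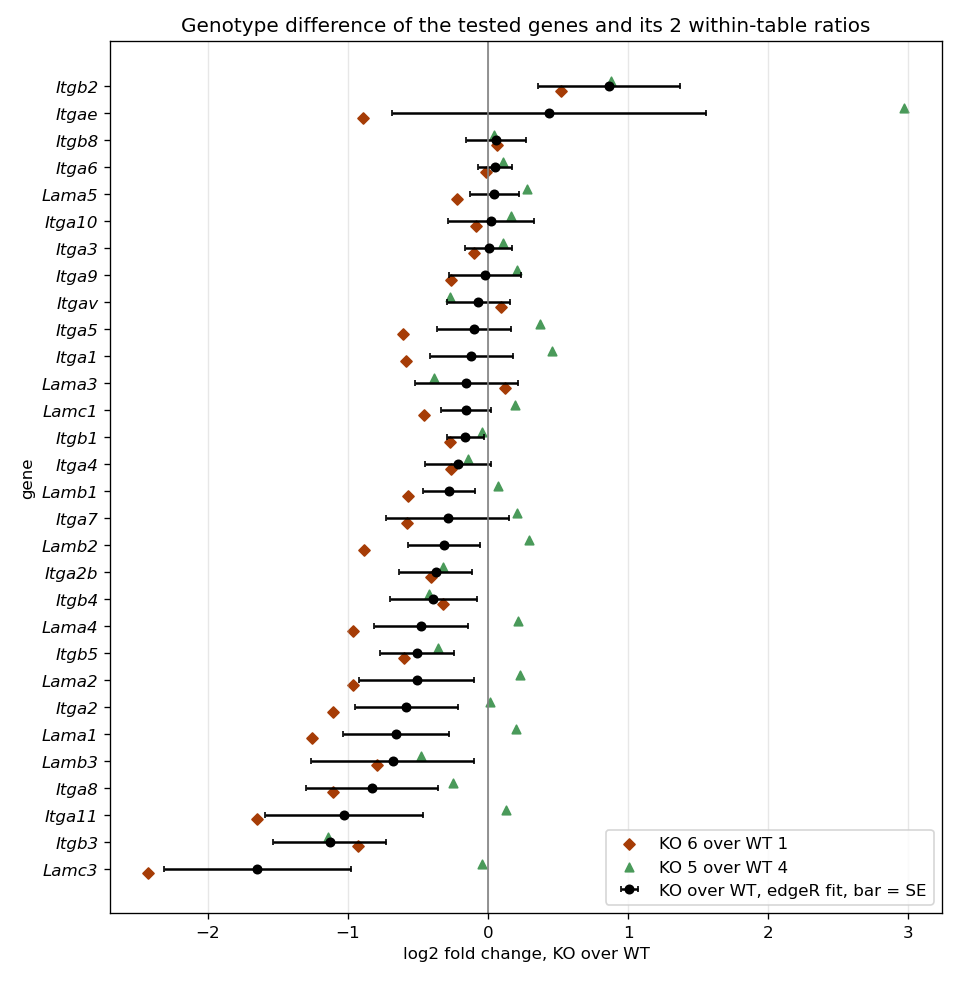
Log2 fold change, KO over WT, of the tested genes reported here, from the edgeR fit (black points, bars give the SE) with the ratio of KO 6 to WT 1 (diamonds) and of KO 5 to WT 4 (triangles). For Lama1, Lama2, Lama4 and Lamc3 the diamonds lie left of the triangles, which are near 0 or above it, while both ratios of Itgb3 lie near -1, at -0.93 and -1.14.

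The authors' deposited tables, which compare 1 library with 1 library, marked 6 of the 35 genes as lower in KO 6 than in WT 1, where 3.59% of all listed genes were marked lower, and 0 as higher, against 1.08%. The 6 are Lamc3 with a deposited log2 fold change of -2.51, Itgal with -2.70, Itga11 with -1.73, Lama1 with -1.29, Itga2 with -1.18 and Itga8 with -1.16 in the authors' deposited table. For KO 5 against WT 4 the authors' deposited table marked 1 of the 35 genes as lower, where 1.6% of all listed genes were marked lower, and Itgae as higher, at 4.77 against a count of 0, where 0.715% of all listed genes were marked higher. None of the genes named here was marked in both tables. A mark went with an adjusted p under 0.05 and a fold change of at least 2-fold, so an unmarked gene is not thereby unchanged. Lama2, Lama4 and Lamb2 fell short of that fold for KO 6 against WT 1, at -0.998, -0.990 and -0.914 on the log2 scale. For KO 5 against WT 4 they were above 0, at 0.245, 0.227 and 0.300.

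Genes that act with the subunits were taken from lists. The list of adhesion complex genes, which link integrins to actin and to kinases, had 29 of its 31 genes tested, 18 below 0 and 11 above, 0 called, with a median of -0.04. Ptk2b, a kinase related to focal adhesion kinase, had 123, 124, 149 and 205 counts in WT 1, WT 4, KO 5 and KO 6, a difference on the log2 scale of 0.57 (SE 0.26), and the tensin genes Tns1 and Tns2 had -0.29 (SE 0.20) and -0.398 (SE 0.31). Laminin receptors other than integrins, with the enzymes that put sugar chains on dystroglycan, had 9 of 17 below 0 and 8 above, 0 called, with a median of -0.001. Bcam, a receptor of the laminin alpha-5 chain, was at -0.73 (SE 0.38), and Pomt1, a dystroglycan glycosylation gene, at 0.15 (SE 0.11). The median of either list lay close to that of all tested genes.

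Ligands of integrins other than laminins, with latent TGF-beta and its binding proteins, had 12 of 20 tested genes below 0 and 8 above, 0 called, with a median of -0.099. Ltbp1, which stores latent TGF-beta in the matrix, had 252, 355, 483 and 407 counts in WT 1, WT 4, KO 5 and KO 6, above the wild type in both KO libraries, with a difference on the log2 scale of 0.59 (SE 0.20, edgeR adjusted p 0.9999). Emilin1, a matrix protein that binds integrins alpha-4 and alpha-9 paired with beta-1, had 278, 120, 96 and 87 counts, with -1.07 (SE 0.38), and Tgfb2 had 345, 445, 581 and 424, with 0.38 (SE 0.19). Mmrn2, the CD93 ligand of the title and a relative of Emilin1, had 112, 83, 97 and 93 counts in WT 1, WT 4, KO 5 and KO 6, with 0.01 (SE 0.26).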

How the data were processed

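Total RNA of 4 libraries (the design text speaks of triplicates) was made into TruSeq libraries, per the labels' protocols. The authors deposited whole counts per Ensembl gene in 2 tables, KO 6 with WT 1 and KO 5 with WT 4; per the submitters' processing notes Bowtie2 2.2.3, TopHat2 2.0.12, HTSeq 0.6.0 and mm9 were used, while the deposited gene positions are those of GRCm38. The strand setting is not given in the sources used here. Exons of 11 of the 35 genes overlap another annotated gene, 8 on the opposite strand. Whether reads in these overlaps were told apart is therefore not known. The authors' deposited CPM values were not used; the deposited log2 fold changes and adjusted p-values, by a tool not named, were used as printed. 

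Members were matched by name in both tables, and 2 further names of the rule, Itgad and Itgb6, were not analysed here. Counts were tested with edgeR 4.0.16 in R 4.3.3 (filterByExpr, TMM, quasi-likelihood test, two-sided, Benjamini-Hochberg over all tested genes), with DESeq2 1.42.0 and limma 3.58.1 as alternatives. The fit was also run on simulated counts with the same spread for all genes and no tissue difference between libraries. These data differ from that setting, so the simulation does not show how the fit performs on them. For ratios of single libraries a prior count of 2 was added before log2. A single count is 0.0569 to 0.0613 CPM of the library totals, without the TMM factors. The floors of 3 counts carry these factors and cover counting error only. Exon lengths are from GENCODE M21. Genes described in full are the 12 of smallest p and, in each group, the 2 of highest level per length; of each pathway list, the 3 of smallest p; the other genes are given by their values. The genes and lists were chosen with earlier results of these data known. Of these, 1 subunit gene and 1 list gene are counted but not reported here by name.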

Additional observations from a re-analysis of the deposited data

How the results depend on the processing

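No integrin or laminin gene was called by DESeq2, limma-voom, RLE scaling, no filter on low counts or the deposited table as a block, and none of the 31 changed direction under these. The count of called genes over the whole table was 2 in edgeR, 8 with DESeq2, 29 with the table as a block and 5 to 312 when 1 library was left out; the count of called subunit genes ran from 0 to 5, the 5 without WT 4. When 1 library was left out, the median over the subunit genes ran from -0.50 to 0.043. The number of non-overlapping genes was 6 as reported and with RLE scaling, 8 with no filter, and 16 to 23 with 1 library left out, where fewer libraries have to be apart. The genotypes share no replicate number; the only pairing fitted was the table as a block, which pairs KO 6 with WT 1 and KO 5 with WT 4. Over the fits with 1 library left out, 20 of 31 genes changed direction, 13 of them without WT 1; the log2 fold changes ran from -0.46 to 0.35 for Itga1, -0.23 to 0.34 for Itga10, -1.64 to 0.083 for Itga11, -0.066 to 0.078 for Itga3, -0.44 to 0.18 for Itga5, -0.045 to 0.15 for Itga6, -0.72 to 0.35 for Itga7, -0.20 to 0.14 for Itga9, -0.53 to 6.41 for Itgae, -0.36 to 0.18 for Itgav, -0.30 to 0.0030 for Itgb1, -0.20 to 0.30 for Itgb8, -1.14 to 0.10 for Lama1, -1.01 to 0.28 for Lama2, -0.35 to 0.082 for Lama3, -0.92 to 0.18 for Lama4, -0.18 to 0.25 for Lama5, -0.53 to 0.033 for Lamb1, -0.60 to 0.054 for Lamb2 and -0.39 to 0.14 for Lamc1. The cause was not tested. The lowest ratio of Itgb1 to its alpha partners moved from 2.198 to 1.57 with the longest coding transcript as length. Depth limits the leukocyte subunits, at 1 to 16 counts where detected.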
